A study of Caenorhabditis remanei with 48 samples.

Results

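The effect of parental temperature was measured in larvae of the outcrossing nematode *Caenorhabditis remanei*, collected at the first larval stage (L1). It rests on 8 of the 48 libraries of the series: replicates 1 and 2 of the ancestral population, strain PX443, all labelled batch A. Parents had lived at 20 °C (4 libraries, called unheated below) or at 30 °C (4 libraries, called heated), and at each parental temperature 2 libraries came from larvae kept at 20 °C and 2 from larvae kept at 30 °C. In all groups embryos were freed by bleaching, kept for 20 h without food, and about 100000 larvae, passed through a 20-micron mesh, were pooled into each library of polyadenylated RNA. The comparison asks what larvae express differently when only their parents' temperature differed, with larval temperature as a covariate, and then at each larval temperature apart. It is set beside 3 further sets of libraries: ancestral larvae of unheated parents in batch B (4 libraries at 20 °C, 2 at 30 °C), and replicates 1 and 2 of a heat-selected and of a control-selected population derived from PX443 (8 libraries each).

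Nematode embryos begin life on RNA and protein that the mother put into the egg, and larvae that hatch without food halt at the first stage until they feed. Heat given directly to a nematode induces chaperone genes through the heat shock factor, as in other animals. No gene names are given for these identifiers in the tables used here, and no gene below is assigned to a pathway, and the labelled larval stage could not be checked against stage markers. Since whole larvae were pooled, fewer cells of a type and less RNA per cell cannot be told apart in any value that follows. The labels do not say whether replicates were separate cultures, so the p-values measure the spread between these libraries, which may be technical.

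Counts in genes ran from 4192353 to 12717722 per library over 24723 gene models, of which 13267 had enough counts to be tested. One library stood apart: in replicate 1 of heated parents and larvae at 30 °C, 41.1% of reads lay outside genes and 35.4% in genes, against 8.03 to 16.3% and 64.0 to 72.8% in the other 7. Reads aligned more than once made up 6.12 and 4.47% of both libraries of heated parents and larvae at 30 °C, and 1.80 to 3.12% of the other 6. The scaling factors of edgeR's trimmed mean method (TMM) were 1.06 to 1.10 with unheated parents and 0.83 to 1.02 with heated parents, so composition moved with the parental groups, and its part in the results was not tested. The replicates of heated parents and larvae at 30 °C differed from each other most, with a chi-square per gene of 85.7, against 3.17, 5.16 and 13.1 in the other pairs. No pair agreed within sampling noise.

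**Figure D1:**
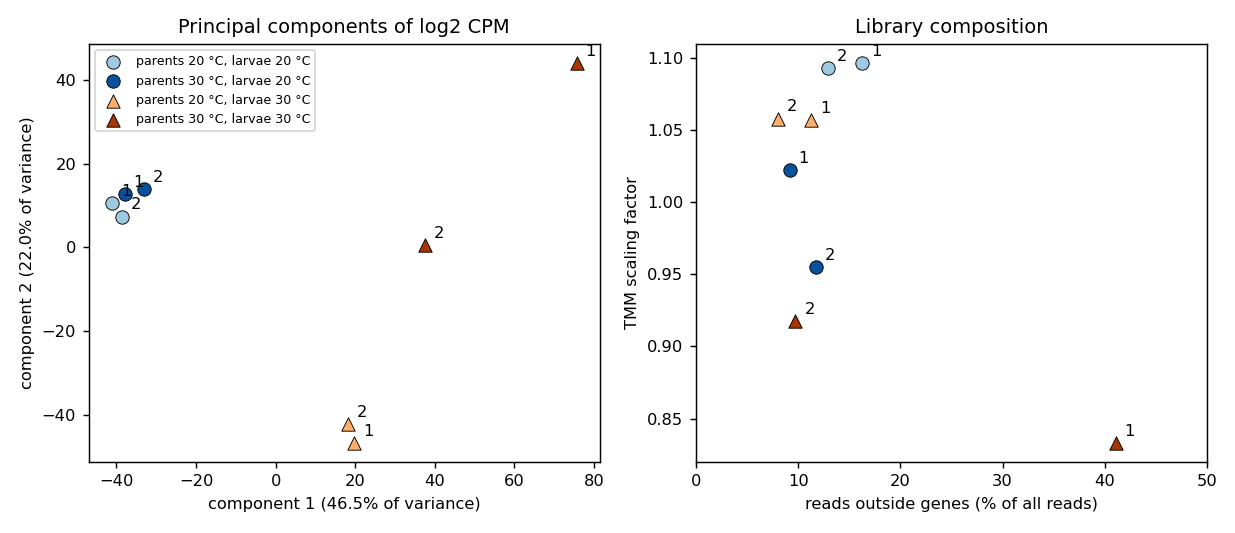
Left, the 8 libraries on the first 2 principal components of log2 CPM, numbered by replicate. Right, the percent of reads outside genes against the TMM scaling factor. Replicate 1 of heated parents and larvae at 30 °C (41.1% outside genes) lies apart in both plots. The libraries of larvae at 20 °C lie close together on these 2 components whatever the parental temperature. Component 3 (14.2% of variance, not drawn) set them apart by it, at −31.5 and −24.1 with unheated and 29.2 and 24.2 with heated parents.

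With larval temperature as a covariate, 674 genes differed between larvae of heated and unheated parents, 5.08% of the 13267 tested. Of these, 474 were higher (3.57%) and 200 lower (1.51%) with heated parents, at a median log2 fold change of 0.97 and −0.76. Most effects were modest: 224 of the higher and 51 of the lower genes changed at least 2-fold. All adjusted p-values come from quasi-likelihood tests in edgeR, adjusted by the method of Benjamini and Hochberg over all genes tested, a gene is called at an adjusted p under 0.05, and errors of log2 fold changes are standard errors. The split depended on scaling. Scaled to total counts, the median over all genes moved to −0.20 and the calls to 290 higher and 941 lower. The count also depended on every library: it was 211 and 233 without replicate 1 or 2 of unheated parents and larvae at 20 °C, 214 and 171 without replicate 1 or 2 of unheated parents and larvae at 30 °C, and 331 and 254 without replicate 1 or 2 of heated parents and larvae at 20 °C. Without replicate 2 of heated parents and larvae at 30 °C it was 311, and without replicate 1, the library with many reads outside genes, it was 1904, which included all 674.

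The genes named for this effect are 10 rises and 10 falls, ranked by log2 fold change. They come from called genes that averaged at least 1 in log2 CPM and whose parental groups did not overlap at either larval temperature. Beyond the first 2 in each direction, a gene is named only where its identifier matched a locus tag of the PX506 assembly. That rule left out CRE20636, which rose by 2.68 and is described below. Values are TMM-scaled CPM (read counts relative to library size), for replicates 1 and 2 in that order. CRE02924, the named gene with the largest rise, is a model on scaffold 149 of the PX356 assembly. With unheated parents it stood at 7.94 and 9.95 CPM in larvae at 20 °C and at 7.94 and 6.63 at 30 °C. With heated parents it stood at 60.0 and 73.5 CPM at 20 °C and at 83.3 and 105 at 30 °C. All 4 libraries of heated parents thus lay above all 4 of unheated parents, whatever the larval temperature (log2 fold change 3.29 ± 0.20, adjusted p = 0.00014). In batch B, however, this gene was higher in larvae at 30 °C than at 20 °C (2.22 ± 0.36, adjusted p = 0.0023).

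CRE00131, on linkage group 1, showed the same form at a low level. Its CPM were 0.159, 0.671, 0.378 and 0.482 in the 4 libraries of unheated parents and 3.30, 3.05, 3.72 and 3.68 in the 4 of heated parents (log2 fold change 2.91 ± 0.37, adjusted p = 0.0034). The larval temperatures overlapped with unheated parents and lay close together with heated ones. CRE03436 and CRE10143, by contrast, stood highest where parents and larvae had both been at 30 °C: CRE10143 was at 0.953 and 1.34 CPM with unheated parents and larvae at 20 °C, at 1.39 and 1.69 with larvae at 30 °C, at 4.59 and 5.19 with heated parents and larvae at 20 °C, and at 15.7 and 10.8 with larvae at 30 °C. The difference between its parental effects at both larval temperatures was not called (1.01 ± 0.53, adjusted p = 0.29).

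CRE16931 and CRE29510 had a different pattern, in which larvae at 30 °C from unheated parents were lowest. CRE29510 stood at 5.88 and 8.83 CPM in larvae at 20 °C and 1.13 and 2.05 in larvae at 30 °C from unheated parents. From heated parents it stood at 27.3 and 13.5 at 20 °C and 26.3 and 23.8 at 30 °C. The larval temperatures were apart with unheated parents and overlapped with heated parents. Its additive change was 2.48 ± 0.47 (adjusted p = 0.017). CRE16931 had the same order, with a rise of 2.81 ± 0.53 (adjusted p = 0.016). The calls of CRE16931, CRE29510, CRE17924 and CRE18121 were the least stable of the 10 rises, being lost in 8, 7, 3 and 10 of the 21 alternative analyses.

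Among the falls, CRE18640 on scaffold 109 was lower with heated parents at both larval temperatures. It stood at 60.7 and 65.2 CPM at 20 °C and 6.17 and 5.91 at 30 °C with unheated parents. With heated parents it stood at 9.53 and 13.6 CPM at 20 °C and 2.29 and 0.805 at 30 °C. Heated parents and heated larvae each went with a lower level, and the lowest libraries had both (parental log2 fold change −2.38 ± 0.23, adjusted p = 0.0011). In batch B, however, with CPM scaled within its 6 libraries, the gene was at 2.06 to 2.67 CPM in larvae at 20 °C and at 1.95 and 2.66 at 30 °C, so the high level of unheated larvae was not seen there.

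CRE29882 fell in the same manner and from a similar level. It went from 60.5 and 52.3 CPM to 23.8 and 25.0 in larvae at 20 °C, and from 14.9 and 14.3 CPM to 4.01 and 3.56 in larvae at 30 °C (−1.50 ± 0.18, adjusted p = 0.0026). Here batch B also had a lower level in larvae at 30 °C (log2 fold change −2.87 ± 0.36). CRE28301 was the highest of the named falls, at 183 and 175 CPM against 97.0 and 64.5 at 20 °C and at 398 and 274 against 106 and 83.8 at 30 °C (−1.49 ± 0.21, adjusted p = 0.0046). It was thus highest in heated larvae of unheated parents, and its level in larvae of heated parents overlapped between larval temperatures. The remaining named falls, CRE_PX356_5228, CRE21858, CRE00104, CRE28365, CRE19880, CRE26348 and CRE28197, had log2 fold changes between −2.07 and −1.33. Of these, CRE19880 and CRE21858 lost the call in 13 and 10 of 20 alternative analyses, and the other 5 in 3 to 6 of 21.

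**Figure D2:**
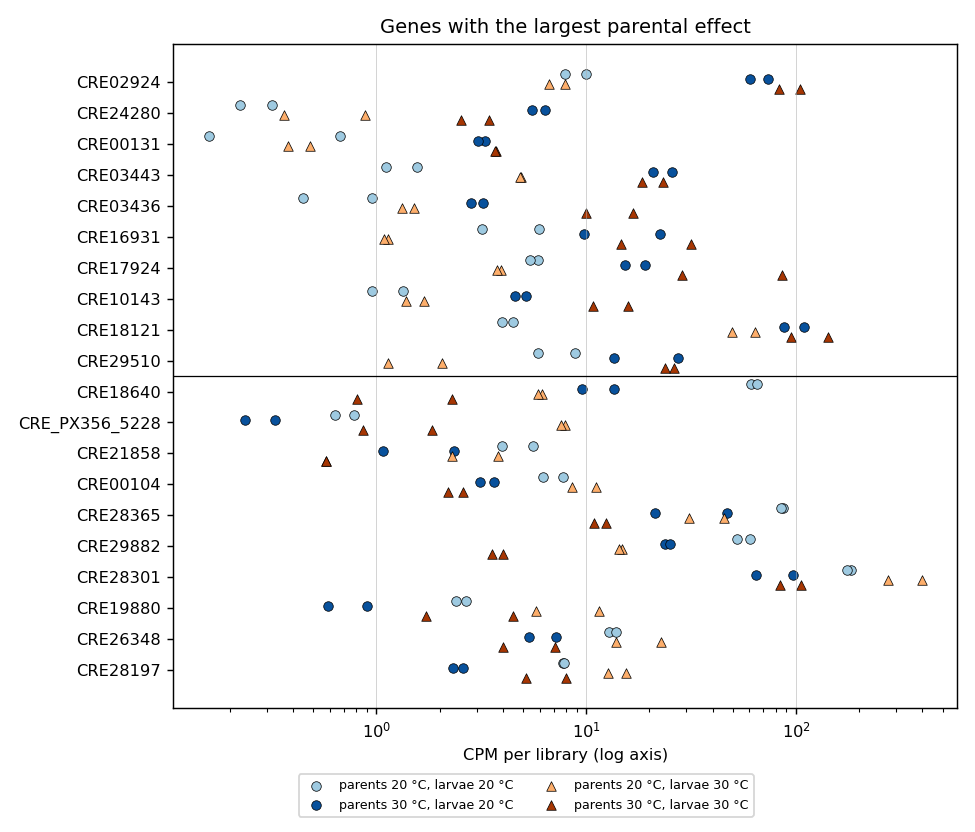
CPM of the 10 named rises (above the line) and the 10 named falls (below it) with heated parents, 1 point per library on a log axis. In CRE02924 all 4 dark points (heated parents, 60.0 to 105 CPM) lie right of all 4 light points (6.63 to 9.95 CPM), while CRE18121 and CRE18640 also move with larval temperature.

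In larvae kept at 20 °C after bleaching, 574 genes differed by parental temperature (4.33%), 466 higher (3.51%) and 108 lower (0.814%) with heated parents. Their median log2 fold changes were 1.02 and −0.88, and 55 of the higher genes rose at least 4-fold. Scaled to total counts, the median over all genes was −0.15 and the calls were 253 higher and 316 lower. The count fell to 81 and 76 without replicate 1 or 2 of unheated parents and larvae at 20 °C, and to 127 and 141 without replicate 1 or 2 of heated parents and larvae at 20 °C. It was 219 without either library of unheated parents and larvae at 30 °C. Without replicate 1 or 2 of heated parents and larvae at 30 °C, which enter this comparison only through the shared estimate of spread, it rose to 2838 and 2843, and all 574 were among them each time.

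The largest rise at 20 °C was that of CRE18121, on linkage group 9. With unheated parents it was at 3.97 and 4.47 CPM in larvae at 20 °C and at 64.0 and 49.3 at 30 °C. With heated parents it reached 88.0 and 109 CPM in larvae at 20 °C and at 142 and 95.1 at 30 °C. Larvae kept at 20 °C after bleaching, from parents at 30 °C, thus exceeded directly heated larvae of unheated parents. Exposure of the parents and of their embryos before bleaching cannot be told apart in this design. The parental log2 fold change was 4.53 ± 0.27 at 20 °C (adjusted p = 2.6e-05) and 1.06 ± 0.22 at 30 °C (adjusted p = 0.015).

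CRE01964, on scaffold 32, repeated this at a high level. It stood at 88.5 and 84.4 CPM in larvae at 20 °C from unheated parents and at 813 and 725 at 30 °C. From heated parents it stood at 1179 and 1243 CPM at 20 °C and 1211 and 1501 at 30 °C. Only the library pair with neither generation heated was low, and the parental change was 3.81 ± 0.18 at 20 °C (adjusted p = 4.7e-06) and 0.82 ± 0.16 at 30 °C (adjusted p = 0.012). Directly heated larvae of batch B were also higher than unheated ones in this gene (3.76 ± 0.27, adjusted p = 1.1e-05).

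CRE22579, on linkage group 2, did not follow that pattern. It was at 69.9 and 74.0 CPM in larvae at 20 °C of heated parents, against 4.13 and 6.48 with unheated parents. In larvae at 30 °C it was at 16.6 and 16.8 against 14.7 and 14.2. The rise was therefore called at 20 °C (3.73 ± 0.21, adjusted p = 1.9e-05) and not at 30 °C (0.21 ± 0.20, adjusted p = 0.52), and batch B gave no call for direct heat (−0.48 ± 0.38, adjusted p = 0.42). CRE03443 and CRE24280 rose by 4.06 ± 0.28 and 4.41 ± 0.52 at 20 °C and, in smaller measure, at 30 °C (2.07 ± 0.23 and 2.19 ± 0.50). CRE24280 rests on few reads, with 4 in the pair of unheated parents at 20 °C against 121 with heated parents. At 30 °C it had 10 against 34.

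The named falls at 20 °C beside CRE18640 were low in level. CRE03133 stood at 14.1 and 10.1 CPM with unheated and at 2.94 and 2.39 with heated parents, and at 1.01 to 1.72 CPM in all 4 libraries of larvae at 30 °C. Heated larvae were thus low whatever their parents, and the groups of larvae at 20 °C did not overlap (−2.18 ± 0.31, adjusted p = 0.0039). CRE28197, CRE18291 and CRE16777 fell by 1.68, 1.47 and 1.44 on the log2 scale, and these 3 calls were lost in 9 to 12 of their 19 or 20 alternative analyses.

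In larvae kept at 30 °C, 1678 genes differed by parental temperature (12.6%), 978 higher (7.37%) and 700 lower (5.28%) with heated parents. Rises of at least 4-fold numbered 182, and falls of that size 19. Scaled to total counts, the median over all genes was −0.25 and the calls were 617 higher and 2049 lower. The count fell to 149 and 173 without replicate 1 or 2 of unheated parents and larvae at 30 °C, to 859 and 861 without those of larvae at 20 °C, and to 1047 and 1053 without replicate 1 or 2 of heated parents and larvae at 20 °C. Without replicate 1 or 2 of heated parents and larvae at 30 °C it was 2820 and 4352, with 1568 and 1542 of the 1678 genes among them. In this pair, replicate 1, with its many reads outside genes, was the higher of both in 63.7% of the genes called higher and in 29.6% of those called lower, against 50.4% of all tested genes. These genes were called with this library in the fit. The number of calls was larger at 30 °C than at 20 °C with all 8 libraries, but smaller without replicate 1 or 2 of unheated parents and larvae at 30 °C (149 and 173 against 219 both times) and without replicate 1 of heated parents and larvae at 30 °C (2820 against 2838).

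CRE24995, on linkage group 2, had the largest named rise at 30 °C. It stood at 0.252 and 0.121 CPM with unheated and at 8.59 and 6.67 with heated parents, while larvae at 20 °C had 1.75 and 0.894 against 0.706 and 0.576. The gene was thus at its highest where both generations had been at 30 °C and at its lowest where only the larvae had (5.22 ± 0.56 at 30 °C, adjusted p = 0.00087). CRE30718 was at 0.126 and 0.482 CPM in heated larvae of unheated parents and between 3.80 and 11.2 CPM in the other 6 libraries (4.89 ± 0.48 at 30 °C, adjusted p = 0.00054). For this gene the low pair was that of direct heat alone.

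CRE17924, on linkage group 9, rose by 3.86 ± 0.48 at 30 °C (adjusted p = 0.0016), with 86.2 CPM in replicate 1 and 28.5 in replicate 2 of heated parents against 3.91 and 3.74 with unheated ones. Without replicate 1, the library that stood apart, the rise was 2.89, and without replicate 2 it was 4.47. The call remained in all 20 alternative analyses of this gene. Among the falls, CRE09344 on scaffold 71 stood at 17.2, 16.5, 17.0 and 12.4 CPM in the 4 libraries of larvae at 20 °C, at 5.67 and 7.72 in larvae at 30 °C of unheated parents and at 0.573 and 1.38 in those of heated parents (−2.56 ± 0.40, adjusted p = 0.0047). CRE19171, at 74.0 and 48.8 CPM against 6.30 and 17.8, fell by 2.23 ± 0.38 on the log2 scale.

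The parental effects at both larval temperatures rest on different libraries and could be set side by side, but they are not independent. They come from 1 fit, in which the scaling and the spread of each gene were estimated over all 8 libraries. A gene with a small spread is thus more easily called at both temperatures. Of the genes higher at 20 °C, 167 (35.8%) were also higher at 30 °C, which is 17.1% of those higher at 30 °C, against 7.37% of all tested genes higher at 30 °C and 3.51% at 20 °C. Of the genes lower at 20 °C, 33 (30.6%) were also lower at 30 °C, which is 4.71% of those lower at 30 °C, against 5.28% and 0.814% of all tested genes. Opposite calls were few, 8 genes being higher at 20 °C and lower at 30 °C and 2 the reverse. Over all tested genes the fold changes were weakly related (Pearson's r = 0.155, Spearman's rho = 0.125 across 13267 genes, which are not independent), and 54.0% had the same sign. The r was 0.0404 without replicate 2 of heated parents and larvae at 30 °C and 0.0720 without replicate 2 of heated parents and larvae at 20 °C.

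**Figure D3:**
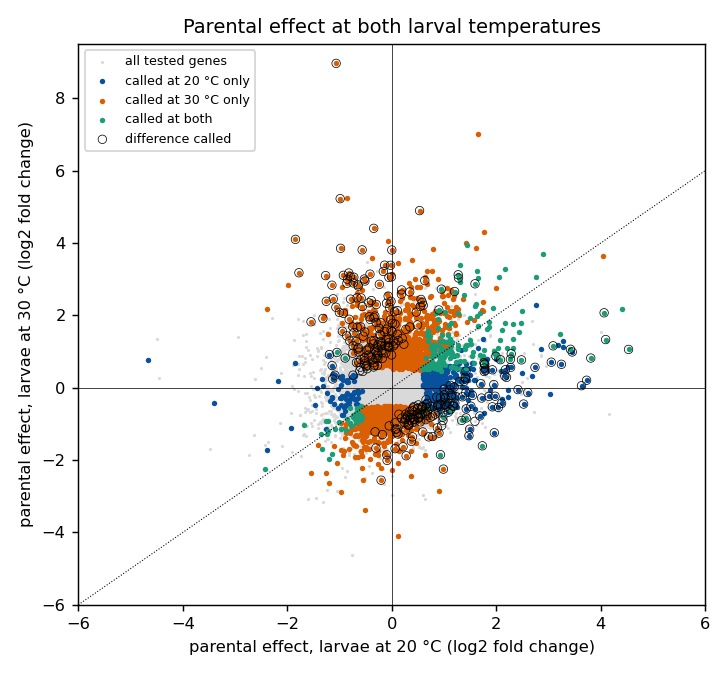
Log2 fold change with heated parents in larvae at 20 °C (horizontal) and at 30 °C (vertical) for the 13267 tested genes, coloured by where the gene was called, with circles on genes whose 2 effects differed. The 167 and 33 genes called in the same direction at both lie on both sides of the dotted line of equal effects, while most called genes were called at 1 larval temperature.

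The difference between the 2 parental effects was itself called in 324 genes (2.44%), in 162 of them more positive at 30 °C (1.22%) and in 162 more negative (1.22%). The count was 36 to 49 without any 1 of the 6 libraries outside the group of heated parents and larvae at 30 °C (39, 38, 36, 36, 48 and 49), 1496 without replicate 1 of that group and 3963 without its replicate 2. All 324 were called in both of these last analyses. CRE15754, on linkage group 2, had the largest negative difference. It stood at 69.8 and 65.4 CPM in larvae at 20 °C of unheated parents, at 844 and 830.2 in larvae at 20 °C of heated parents, and in larvae at 30 °C at 175 and 166 with unheated and 166 and 187 with heated parents. The high level was thus seen where parents alone had been heated (difference −3.58 ± 0.21, adjusted p = 0.00012), the same form as in CRE22579.

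Of the positive differences, CRE15292 on linkage group 1 stood at 45.2 and 27.7 CPM where both generations had been at 30 °C and between 2.22 and 5.14 CPM in the other 6 libraries. It was the most stable of its kind (4.83 ± 0.45, adjusted p = 0.00093). CRE00935 had the same form at a lower level, with 12.9 and 7.36 CPM against 0.165 to 1.45 in the other 6. CRE07521 was less regular, at 3.15 and 14.4 CPM against 0.576 to 3.18, so that replicate 1 did not exceed the highest of the others. CRE08719 was at 16.4 and 9.30 CPM in unheated larvae of heated parents and at 0.573 and 0.46 in heated ones (−3.24 ± 0.70, adjusted p = 0.043), a call lost in 12 of its 20 alternative analyses.

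Batch B gave the response of ancestral larvae to their own 30 °C in libraries that enter none of the parental comparisons. There 1788 of 11410 tested genes (15.7%) were called, 1017 raised (8.91%) and 771 lowered (6.76%). The count was 763 and 2885 without replicate 3 or 5 of larvae at 20 °C, and 381 and 459 without replicate 3 or 4 of larvae at 30 °C, and the percents below rest on this list. By the labels batch A holds 4 and batch B 2 libraries of unheated parents and larvae at 30 °C, against 2 and 4 of larvae at 20 °C. Replicates 5 and 6 of larvae at 30 °C, labelled A, had 21.1 and 21.9% of reads not aligned, against 11.3 and 12.4% in replicates 1 and 2 and 19.3 to 37.5% in the 6 libraries labelled B, and whether the label A is right for them was not settled. They enter neither the comparisons of the 8 libraries nor that of batch B. Among the 11188 genes tested in both, 7.85% were raised and 6.87% lowered. Of the genes higher at 20 °C with heated parents, 106 of 444 (23.9%) were raised by direct heat in batch B and 6.08% lowered. Those lower at 20 °C had the opposite split, 1.90% raised and 19.0% lowered, with only 105 such genes. That 19.0% moved by over 1.5 times when any 1 of the 8 libraries was left out, to 11.2% without either library of heated parents and larvae at 30 °C and to between 33.3 and 75.0% without any of the other 6.

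At 30 °C the same comparison gave a smaller departure: of the genes higher with heated parents 17.8% were raised in batch B and 12.1% lowered, and of those lower 4.85% were raised and 10.7% lowered. Genes whose parental effect was more negative at 30 °C than at 20 °C were raised by direct heat in 25.8% and lowered in 6.29%. Those whose effect was more positive were raised in 16.7% and lowered in 18.8%. Leaving out 1 library at a time, the percent of genes higher at 20 °C that batch B raised was 17.0 to 49.3, against 7.98 to 8.04 for all genes. It was over 1.5 times the reported percent without replicate 1 or 2 of unheated parents and larvae at 20 °C (47.2 and 49.3) and of heated parents and larvae at 20 °C (40.5 and 37.7). The percent of genes higher at 30 °C that batch B raised was 30.6 without replicate 1 of unheated parents and larvae at 30 °C and 12.2 to 25.0 without any other library. Across genes the batch B fold changes had an r of 0.216 with the parental effect at 20 °C and of 0.094 with that at 30 °C.

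**Figure D4:**
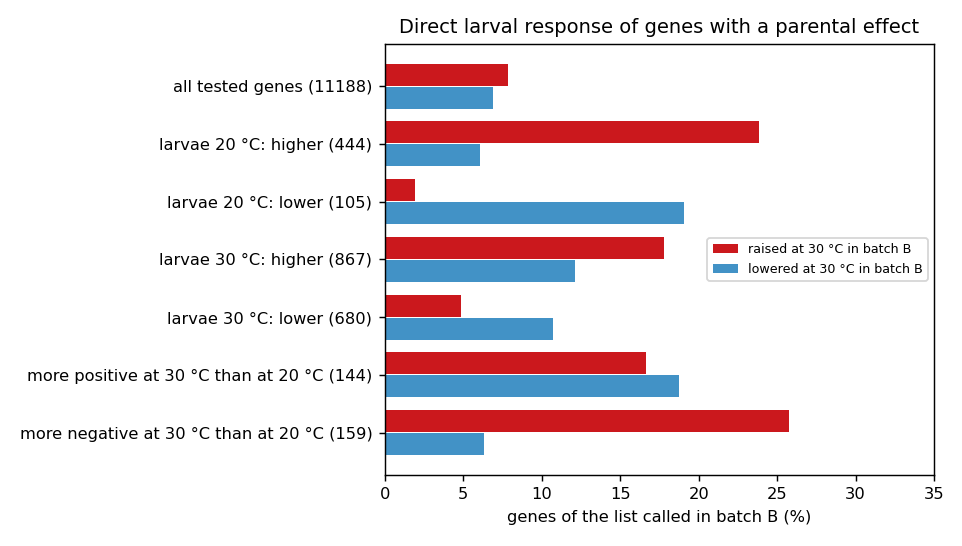
Percent of genes that batch B called raised (red) or lowered (blue) in larvae at 30 °C, for all genes tested in both sets and for lists called by the parental effect, with the number of genes in parentheses. Genes higher at 20 °C with heated parents were raised in 23.9% against 7.85% of all genes.

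The genes that direct heat raised most were also described by their parental effects. The list was taken from batch B alone, as the 26 genes it raised by at least 4 on the log2 scale, a threshold chosen after the data were seen. With heated parents 2 of these 26 were higher and 0 lower in larvae at 20 °C (7.69%, against 3.97% of all genes tested in both sets), and the median log2 fold change was −0.03. In larvae at 30 °C 10 of 26 were higher (38.5%, against 7.75%) and 2 lower (7.69%, against 6.08%), with a median of 0.70. The milder list held 189 genes raised by at least 2 on the log2 scale. At 20 °C 28 of them were higher (14.8%, against 3.97%) and 1 lower (0.529%, against 0.939%). At 30 °C 35 were higher (18.5%, against 7.75%) and 9 lower (4.76%, against 6.08%).

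CRE_PX356_1986, on scaffold 127, led this list and was singled out for that rank. It stood at 48.5 and 82.1 CPM in unheated larvae of unheated parents and at 84.2 and 43.1 in those of heated parents. In larvae at 30 °C it reached 4914 and 4428 CPM with unheated and 24416 and 13786 with heated parents. Unheated larvae overlapped whatever their parents, and among heated larvae those of heated parents were higher (2.03 ± 0.36 at 30 °C, adjusted p = 0.0084). CRE_PX356_430 and CRE01029 had the same order, with changes of 1.95 ± 0.34 and 1.16 ± 0.28 at 30 °C.

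The 2 genes of the 26 called higher at 20 °C were CRE20636 and CRE11034, both on linkage group 4 and named after their values were seen. CRE20636 was at 24.2 and 26.7 CPM in unheated larvae of unheated parents, 443 and 427 in those of heated parents, 424 and 427 in heated larvae of unheated parents and 1169 and 971 where both had been heated. Heat in either generation alone thus went with levels between 424 and 443 CPM, and heat in both with the highest. Its parental changes were 4.09 at 20 °C (adjusted p = 3.6e-06) and 1.33 ± 0.15 at 30 °C (adjusted p = 0.001). CRE11034 was at 1.11 and 1.90 CPM, 10.9 and 8.32, 40.3 and 38.9, and 35.5 and 36.7 in the same 4 groups, so its parental change at 20 °C (2.60, adjusted p = 0.00091) left it below directly heated larvae.

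**Figure D5:**
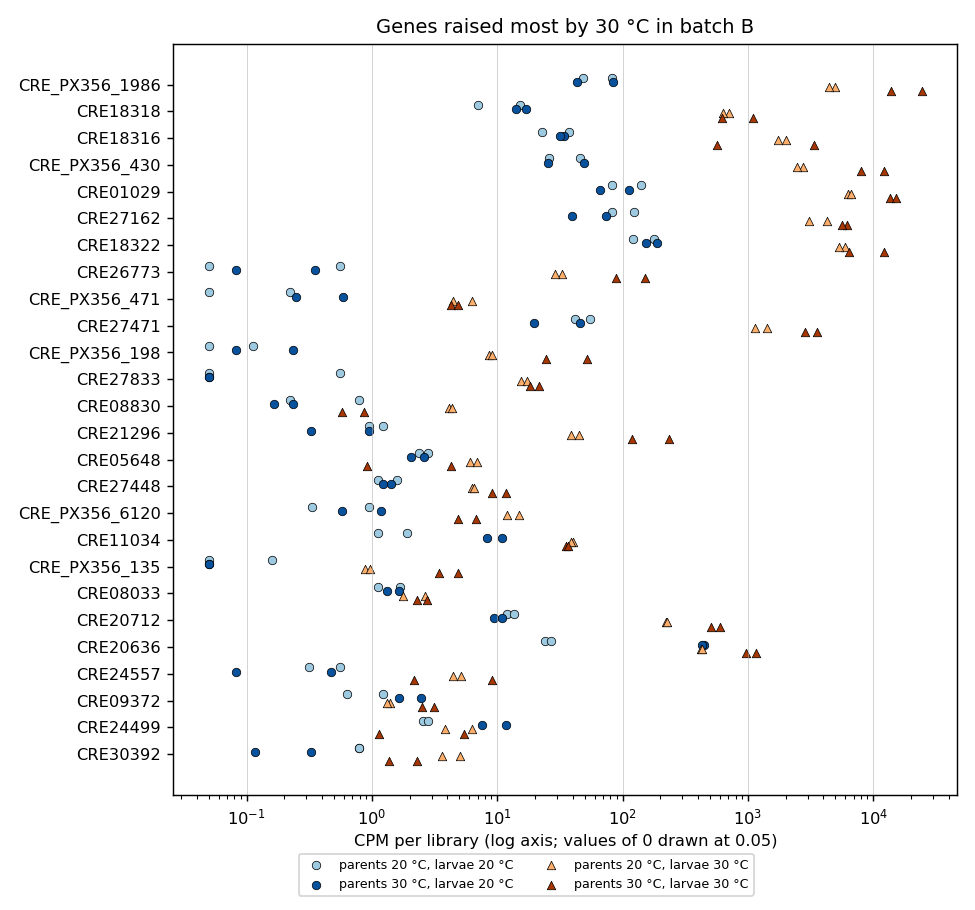
CPM of the 26 genes that batch B raised by at least 4 on the log2 scale, in the 8 batch A libraries, 1 point per library on a log axis. In CRE20636 and CRE11034, the 2 genes called higher at 20 °C, the circles of larvae at 20 °C lie apart by parental temperature.

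The same parental contrast was fitted in the heat-selected and control-selected populations, which share no library with the ancestor. Of the genes higher with heated parents in the ancestor, 471 were tested beside the heat-selected population, where 44 were called in the same and 58 in the opposite direction. Among all 12734 genes tested in both, 333 were called higher and 279 lower in the heat-selected population. Beside the control-selected population 473 were tested, with 4 called the same way and 0 the opposite way. The control-selected population had few parental calls of its own, 18 higher and 5 lower among 12821 genes. Of the 200 genes lower in the ancestor, 3 and 11 were called in the same and in the opposite direction in the heat-selected population and 0 in either direction in the control-selected one. In the heat-selected population 43.5% of the higher and 40.0% of the lower genes had the sign of the ancestor, against 47.7% of all genes. In the control-selected one 53.3 and 54.0% had it, against 53.8%.

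The parental effect differed from that of the heat-selected population in 476 of 13055 genes (3.65%), in 313 of them more positive in the ancestor (2.40%) and in 163 more negative (1.25%). Scaled to total counts the split was 170 and 266, with a median over all genes of −0.23. From the control-selected population it differed in 137 of 13161 genes (1.04%), 97 more positive (0.737%) and 40 more negative (0.304%). Populations lie in different batches, so population and batch cannot be told apart in these differences. The count of 476 was 240 and 219 without replicate 1 or 2 of ancestral unheated parents and larvae at 30 °C, 303 and 290 without those of larvae at 20 °C, 302 without replicate 1 of ancestral heated parents and larvae at 20 °C, and 298 without replicate 2 of those with larvae at 30 °C. In the heat-selected population it was 892 and 723 without replicate 1 or 2 of unheated parents and larvae at 20 °C, 240 and 196 without those of larvae at 30 °C, and 270 without replicate 1 of heated parents and larvae at 30 °C. The count of 137 was 89 and 91 without replicate 1 or 2 of ancestral unheated parents and larvae at 30 °C, 87 without replicate 2 of the control-selected group of that kind, and 83 without replicate 1 of control-selected heated parents and larvae at 30 °C.

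CRE18121, the gene with the largest rise at 20 °C, had the largest positive difference from the control-selected population (4.93 ± 0.97, adjusted p = 0.014). In control-selected larvae of heated parents it stood at 4.17 and 4.21 CPM at 20 °C and at 1.45 and 3.69 at 30 °C, with CPM scaled within the 16 libraries compared. In those of unheated parents it stood at 6.99 and 2.77 CPM at 20 °C and 34.5 and 49.4 at 30 °C. The pair with both generations heated was thus among the lowest there and among the highest in the ancestor. Without replicate 1 or 2 of control-selected heated parents and larvae at 30 °C the difference was 4.29 and 4.50, and the call was lost (adjusted p = 0.07 and 0.059).

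CRE02924 also differed from the control-selected population (4.61 ± 0.80, adjusted p = 0.0059), where heated parents went with 15.8 and 11.8 CPM at 20 °C against 9.88 and 8.06, and with 2.42 and 0.738 at 30 °C against 17.1 and 36.0. In the heat-selected population it rose with heated parents, as in the ancestor (2.63 ± 0.44, adjusted p = 0.0028). CRE18121 and CRE01964, by contrast, fell there with heated parents (−3.99 ± 0.79, adjusted p = 0.0081, and −3.39 ± 0.96, adjusted p = 0.0495). In heat-selected larvae at 30 °C, CRE01964 went from 4934 and 4327 CPM with unheated to 93.5 and 54.3 with heated parents. At 20 °C its groups overlapped (114 and 263 against 70.4 and 145). At 30 °C CRE18121 went from 210 and 252 CPM to 4.40 and 3.44. At 20 °C it went from 10.2 and 13.6 to 2.99 and 5.36. The ancestral rises of both genes were larger at 20 °C than at 30 °C. The ancestral effects of both genes differed from the heat-selected ones by 6.62 ± 1.02 and 5.70 ± 1.26 (adjusted p = 0.0019 and 0.017). CRE01964 also differed from the control-selected population (3.84 ± 0.83, adjusted p = 0.026). From the heat-selected population the largest difference was that of CRE_PX356_198 (9.26 ± 1.22, adjusted p = 0.00064). In ancestral heated larvae this gene was at 8.57 and 9.16 CPM with unheated and 52.1 and 24.6 with heated parents. In heat-selected heated larvae it was at 102 and 89.4 with unheated parents and at 0 in both libraries of heated parents, so the populations moved in opposite directions, and the size of a fitted change against libraries at 0 is no measured fold.

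The genes of the additive effect were spread unevenly over the assembly. The gene models carry the linkage groups and scaffolds of the PX356 assembly in their names. Genes higher with heated parents made up 3.57% of all tested genes, and 10.4% of those on linkage group 9 (15 of 144), 9.04% on linkage group 10 (15 of 166) and 9.03% on linkage group 11 (14 of 155), against 2.77 to 6.20% on linkage groups 1 to 8 except for group 7, with 2.44%. Genes lower with heated parents made up 1.51% of all tested genes, and 0 of the genes on linkage groups 7 and 10. The tested genes were also cut into 4 equal parts by mean log2 CPM. Genes higher with heated parents were more frequent among abundant genes, at 1.21% of the lowest part and 6.30% of the highest. Genes lower with heated parents made up 0.392, 1.48, 2.59 and 1.57% from the lowest part to the highest, so they were most frequent in the third.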

How the data were processed

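The authors deposited raw read counts per gene model, with a file for each library. Per the submitters' processing notes they used GSNAP and HTSeq, whose version is not given in the sources used here, nor is the genome build. Each file also lists 5 categories of reads outside the counts, which entered no test. Genes were tested on the counts with edgeR 4.0.16 (R 4.3.3): TMM scaling, filterByExpr at a minimum count of 10, and quasi-likelihood tests. Of the gene models, 15243 (10412 of those tested) matched locus tags of the PX506 assembly, which was used only for the order of genes. The additive effect used a model with larval temperature, and the others used 1 coefficient per group, with spread estimated over all 8 libraries. Differences between populations used 16 libraries and batch B used 6. Counts are given as TMM-scaled CPM.

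Named genes were the most changed called genes, beyond the first 2 in each direction only where the identifier matched a PX506 locus tag. In each direction there were 10 for the additive effect, 5 at each larval temperature, 4 for the interaction and 2 for each difference between populations. No overlap between parental groups was required for the additive effect and for the effects at each larval temperature. It was not required for the interaction or for the differences between populations. The members and lists were chosen with earlier results of these data known. Planned lists by gene function and the check of stage markers could not be made, as the tables used here give no gene names. Alternatives were DESeq2 1.42.0, limma 3.58.1, other scalings, filters and sets of libraries, a replicate block and leaving out each library; leaving out libraries for the correlation and the batch B percents was added after seeing the data. Same-numbered replicates did not deviate together, so the numbers were not taken to pair libraries. Depth, from 4192353 to 12717722 counts, limits the precision of genes under about 1 CPM.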

Additional observations from a re-analysis of the deposited data

Results flagged for a closer look

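In ancestral larvae the parental effects at 30 and 20 °C differed by edgeR's test of the interaction in 324 genes. The named differences were 6.21 in CRE24995, 5.94 in CRE00935, 4.95 in CRE07521 and 4.83 in CRE15292, and −3.58 in CRE15754, −3.52 in CRE22579, −3.47 in CRE18121 and −3.24 in CRE08719, on the log2 scale.

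The ancestral parental effect differed from that of the heat-selected population in 476 genes. Named ones were CRE_PX356_198 (9.26), CRE29499 (7.67), CRE07335 (−5.02) and CRE15656 (−4.002). CRE07335 and CRE15656 had no parental call in the ancestor (−0.32 ± 0.29 and −0.48 ± 0.29) and rose in the heat-selected population (4.70 ± 0.64 and 3.52 ± 0.47). From the control-selected population the effect differed in 137 genes, among them CRE18121 (4.93), CRE02924 (4.61), CRE18640 (−3.20) and CRE_PX356_5228 (−2.82). CRE07335 was among these too (−2.61, edgeR adjusted p = 0.026). It also rose with heated parents in the control-selected population (2.28 ± 0.41, edgeR adjusted p = 0.021), where CRE15656 had no parental call (0.31 ± 0.41).

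Reads outside the counts were compared over the 8 libraries. In replicate 1 of heated parents and larvae at 30 °C, 41.1% of reads lay outside genes, above every library of unheated parents, while the other 3 libraries of heated parents (9.16 to 11.7%) lay within their range of 8.03 to 16.3%. Reads aligned more than once made up 6.12% of that library and 4.47% of its replicate 2, against at most 3.12% with unheated parents and 1.80 and 2.07% in larvae at 20 °C of heated parents.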

How the results depend on the processing

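Of the 1157 checks of a named gene under an alternative, 928 kept the call, 229 lost it and 0 changed sign. Counts of calls moved by more than 1.5 times as follows, in the order additive effect, larvae at 20 °C, larvae at 30 °C and interaction, and otherwise stayed within 1.5 times. Total counts as the scale gave 1231 for the additive effect and 2666 at 30 °C. No filter gave 1432, 1326, 2622 and 1527. A tested minimum fold change of 1.5 gave 54, 112, 285 and 79. DESeq2's test gave 1293 for the additive effect and 584 for the interaction. All 10 ancestor libraries labelled batch A, of which 2 may carry a wrong batch label, gave 70, 21, 222 and 4, all 16 ancestor libraries with batch 196, 77, 442 and 46, and all 48 libraries 152, 1107 and 215 in the last 3. Consecutive replicates summed over all populations gave 10, 1, 17 and 0. At that 0, edgeR left 742 genes at an unadjusted p under 0.05. In those sums CRE00131, CRE03443, CRE17924 and CRE10143 kept the additive call. Replicates summed into 4 sums gave 215 for the additive effect. Replicate number as a block gave 392, 366 and 151 for the additive effect, larvae at 20 °C and the interaction (1205 at 30 °C, within 1.5 times), and 233 and 91 for the differences from the heat-selected and control-selected populations. The correlations of deviations of same-numbered libraries were −0.078 to 0.038, so the numbers are not taken to pair them.

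Leaving out 1 library at a time gave 171 to 1904, 76 to 2843, 149 to 4352 and 36 to 3963, then 196 to 892 and 83 to 181 for the differences from the heat-selected and control-selected populations, and 381 to 2885 in batch B. For both differences, no filter gave 863 and 434, DESeq2's test 972 and 354, a tested fold of 1.5 gave 145 and 42, and total counts gave 82 for the control-selected one. In batch B total counts gave 1033 and a tested fold of 1.5 gave 660. The cause of these shifts was not tested. With 2 libraries a group, the counts depend on each library, and genes near 1 CPM rest on few reads.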

Other observations

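The direct neighbours of called genes were counted. In the gene order of the PX506 assembly, 52 of 390 tested direct neighbours of genes higher in the additive comparison were higher too (13.3%, against 3.69% of matched genes). For genes higher at 20 °C the share was 10.3% against 3.71%, and for genes higher at 30 °C 15.5% against 7.44%. For genes lower at 30 °C it was 10.5% against 6.03%, with 78 of 743 neighbours. Genes lower in the additive comparison had 6 of 196 (3.06% against 1.71%), and genes lower at 20 °C 0 of 105 against 0.922%. Reads on overlapping models, 2.56 to 5.41% of a library, are not in the counts.

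The longest run, found after the values were seen, held 5 adjacent genes on linkage group 9 that were all higher at 30 °C: CRE17926, CRE17925, CRE17832, CRE17831 and CRE17924. The first 4 had levels of at most 9.45 CPM and rises of 1.53 to 3.00 on the log2 scale, and CRE17924 rose most (3.86). In larvae at 20 °C none of the 5 was called. A run of 3 on scaffold 91, CRE26365, CRE26364 and CRE26363, was higher in the additive comparison. CRE26365 led it, at 158 and 162 CPM in unheated larvae of unheated parents and 668 and 687 in those of heated parents, and at 456 and 459 against 745 and 819 in larvae at 30 °C.

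Of the 20 most abundant genes, 8 were higher and 0 lower at 30 °C with heated parents, and 2 were higher and 0 lower at 20 °C. The shares of all tested genes were 7.37% higher and 5.28% lower at 30 °C and 3.51 and 0.814% at 20 °C. No conclusion is drawn from these counts, since the 20 were ranked by mean CPM over the same 8 libraries. A gene could enter through its level where both generations had been heated. CRE_PX356_430, with a mean of 3211 CPM, stood at 12237 and 8060 there and at most at 2773 elsewhere. The most abundant, CRE31473, stood at 9020.2 and 9453 CPM in heated larvae of unheated parents and at 13674 and 13459 in those of heated parents (0.55 ± 0.14, edgeR adjusted p = 0.03).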
